A study of Mus musculus with 47 samples.

Results

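A stretch of mouse chromosome 7 was examined here for probes whose level varied from mouse to mouse in step. Its members were chosen by position: all non-control spots with a gene name whose listed mm8 position on chromosome 7 starts between 99500000 and 119500000, leaving out names of ribosomal protein, mitochondrial ribosomal protein and Nduf subunit genes, names starting with Txn, Adamts or Mmp, and Arntl. This gave 601 spots of 437 gene names, out of 43379 non-control spots on the array, while 10 spots of the stretch were left out by name. The stretch itself was picked from earlier results of these data, because genes that changed with diet in Bcmo1-null females at an unadjusted p under 0.01 lay there, Trim12 first, and because they varied among knockout mice. That diet contrast and the spread among knockout mice are therefore given as descriptions only. At the lower edge, EG245190 (start 99499028) lay just outside and Slco2b1 (start 99532581) just inside, and at the upper edge Acsm1 (start 119451814) lay just inside and BC048390 (start 119501516) just outside.

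Gene expression was measured in the inguinal white adipose tissue (iWAT, the fat pad under the skin of the groin) of 47 mice, 1 array per mouse. Wild-type (WT) mice were compared with Bcmo1-null mice, which lack β-carotene 15,15′-monooxygenase, the enzyme that cleaves β-carotene (BC) into retinal. From 5 to 19 weeks of age, for 14 weeks, the mice ate a diet with 1500 IU vitamin A/kg and 10% of energy as fat, either without BC (control diet) or with 150 mg BC/kg (BC diet). Each of the 8 groups of sex, genotype and diet held 6 mice, except WT males on the BC diet with 5. All mice, WT and null, are labelled with the mixed background C57/BL6;129Svj. The study's methods give the WT controls as an F1 generation of that background and the null mice as the line C57/BL6;129Svj-Bcmo1 tm1Dnp. An F1 mouse of a cross of inbred strains carries a copy of each chromosome from either strain, while mice of a bred mixed line can carry different combinations, so that Bcmo1 genotype and breeding cannot be told apart in comparisons of null with WT mice. The alleles carried by single mice were not analysed here, and neither were litters or cages.

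Each array set Cy5-labeled cRNA of 1 mouse against a Cy3-labeled pool of all samples, and all levels below are log2 ratios of mouse to pool. The median Cy5 signal per array lay between 130 and 277, with 54.5% to 69.7% of the probes above 2 times the local background. Adipocyte markers were bright (Adipoq with a mean Cy5 of 364664 and Fabp4 with 599062), as the tissue label has it. The pads also held signal of other tissues, with lymphocyte scores from -3.38 to 1.43 and muscle scores from -4.26 to 2.29 over the 47 mice. The scores are medians of the log2 ratios of marker genes, 10 of 11 listed genes for lymphocytes and 6 of 6 for muscle. In bulk tissue, fewer cells of a type and less RNA per cell cannot be told apart. The Bcmo1 probe was near background in every group (Cy5 66.5 to 126, against 105 to 109.5 for 2 times the background), so that it does not check the genotype labels.

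Genes that lie close together on a chromosome are inherited together more often than distant ones, and inbred strains differ in the level of many genes. The stretch holds a cluster of genes for tripartite motif (TRIM) proteins, ubiquitin ligases with a RING finger, a B-box and a coiled coil, several of which act against viruses and are induced by interferon. It also holds a large cluster of olfactory receptor genes, the beta-globin genes, the uncoupling protein genes Ucp2 and Ucp3, and genes of general cell function such as Pold3, a subunit of DNA polymerase delta, and Rab6 (Rab6a), a small GTPase of transport through the Golgi apparatus. Many of these are silent in fat: of 172 spots for 164 olfactory receptor genes only 5 passed the filter on dim probes in either sex or over all arrays. In all, 221 of the 601 members passed that filter over all 47 arrays (222 in females and 216 in males), with 139 gene names, and 380 did not.

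The promoters of 5 genes that the results turn on are shown, to let their sequence be set beside their expression. Trim12a is the current name of Trim12, Trim34a of Trim34 and Trim30d of AI451617. Each run holds 130 bases before and 25 bases after the RefSeq transcription start (GRCm38.p6, which is not the build of the probe positions), and the capitals mark the core of the interferon-stimulated response element, searched as GAAANNGAAA and, for the other strand, TTTCNNTTTC. The runs lie at chr7:104315471-104315625 (minus strand) for Trim12a, chr7:104244327-104244481 (plus) for Trim34a, chr7:104507825-104507979 (minus) for Trim30d, chr7:100121478-100121632 (minus) for Pold3 and chr7:100607456-100607610 (plus) for Rab6a.
Trim12a: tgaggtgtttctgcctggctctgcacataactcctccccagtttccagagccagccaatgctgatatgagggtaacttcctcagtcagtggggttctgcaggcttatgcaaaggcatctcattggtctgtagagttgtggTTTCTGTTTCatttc
Trim34a: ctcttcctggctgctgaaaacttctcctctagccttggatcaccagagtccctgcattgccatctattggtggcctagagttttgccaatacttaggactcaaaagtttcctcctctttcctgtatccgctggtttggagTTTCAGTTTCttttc
Trim30d: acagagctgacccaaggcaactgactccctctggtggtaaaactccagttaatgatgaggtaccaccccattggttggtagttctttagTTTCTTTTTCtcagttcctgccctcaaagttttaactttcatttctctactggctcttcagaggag
Pold3: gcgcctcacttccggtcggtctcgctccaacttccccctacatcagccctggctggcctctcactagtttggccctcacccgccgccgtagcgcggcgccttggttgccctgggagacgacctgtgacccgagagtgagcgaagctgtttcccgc
Rab6a: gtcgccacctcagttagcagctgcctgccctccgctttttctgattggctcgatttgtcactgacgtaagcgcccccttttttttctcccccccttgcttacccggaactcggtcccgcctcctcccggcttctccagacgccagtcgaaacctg

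All 3 TRIM promoters held the pattern once, the same 11 bases after the start in Trim12a and Trim34a, and those of Pold3 and Rab6a did not hold it. Over 300 bases around the start, 1131 of 32851 promoters (3.44%) held it. Of the promoters of members, 17 of 324 (5.25%) held it in the 250 bases upstream, against 2.98% of all promoters. The promoters of Trim12a and its paralog Trim5 shared a run of 241 identical bases, those of Trim12a and Trim12c one of 71 and those of Trim30a and Trim30d one of 118, and the genes are close paralogs. Whether their probes bind more than one of them was not tested, and their values are uncertain as to the gene.

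In Bcmo1-null mice, Trim12 was either far below every WT mouse or within or above the range of all WT mice together. Its brightest probe, listed at chr7:104173806-104173865 (mm8, minus strand), had log2 ratios from -0.18 to 0.38 (median 0.30) in WT females on the control diet and from -0.69 to 0.98 (median 0.68) on the BC diet. In WT males it ran from -0.31 to 0.49 (median 0.04) on the control diet and from -0.26 to 0.17 (median -0.19, n = 5) on the BC diet. No WT mouse was therefore below -0.69.

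The Bcmo1-null mice spread over a wider range. In null females on the control diet, Trim12 was at -2.15, -3.32, -4.00, 0.93, 0.82 and -4.01 in the 6 mice, 4 of them below every WT mouse. In null females on the BC diet it was at -0.15, 0.08, 1.83, 1.28, 0.69 and 0.34, none of them below the WT mice. In null males on the control diet it was at 0.55, 1.04, -3.87, 1.00, -2.73 and -3.77, so that 3 of 6 were below every WT mouse. In null males on the BC diet all 6 were, at -2.81, -3.08, -3.10, -3.75, -3.63 and -3.79. In all, 13 of 24 null mice lay below every WT mouse, and no null mouse had a value between -2.15 and -0.15. The Cy5 signal of those 13 mice was 126 to 207, against 2334 to 7922 in the other null mice and 1397 to 5117 in WT mice. In 3 of the 13 mice, it was not well above background. A second, dimmer Trim12 probe (chr7:104178135-104178194) put 12 null mice below every WT mouse, all of them among these 13.

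**Figure D1:**
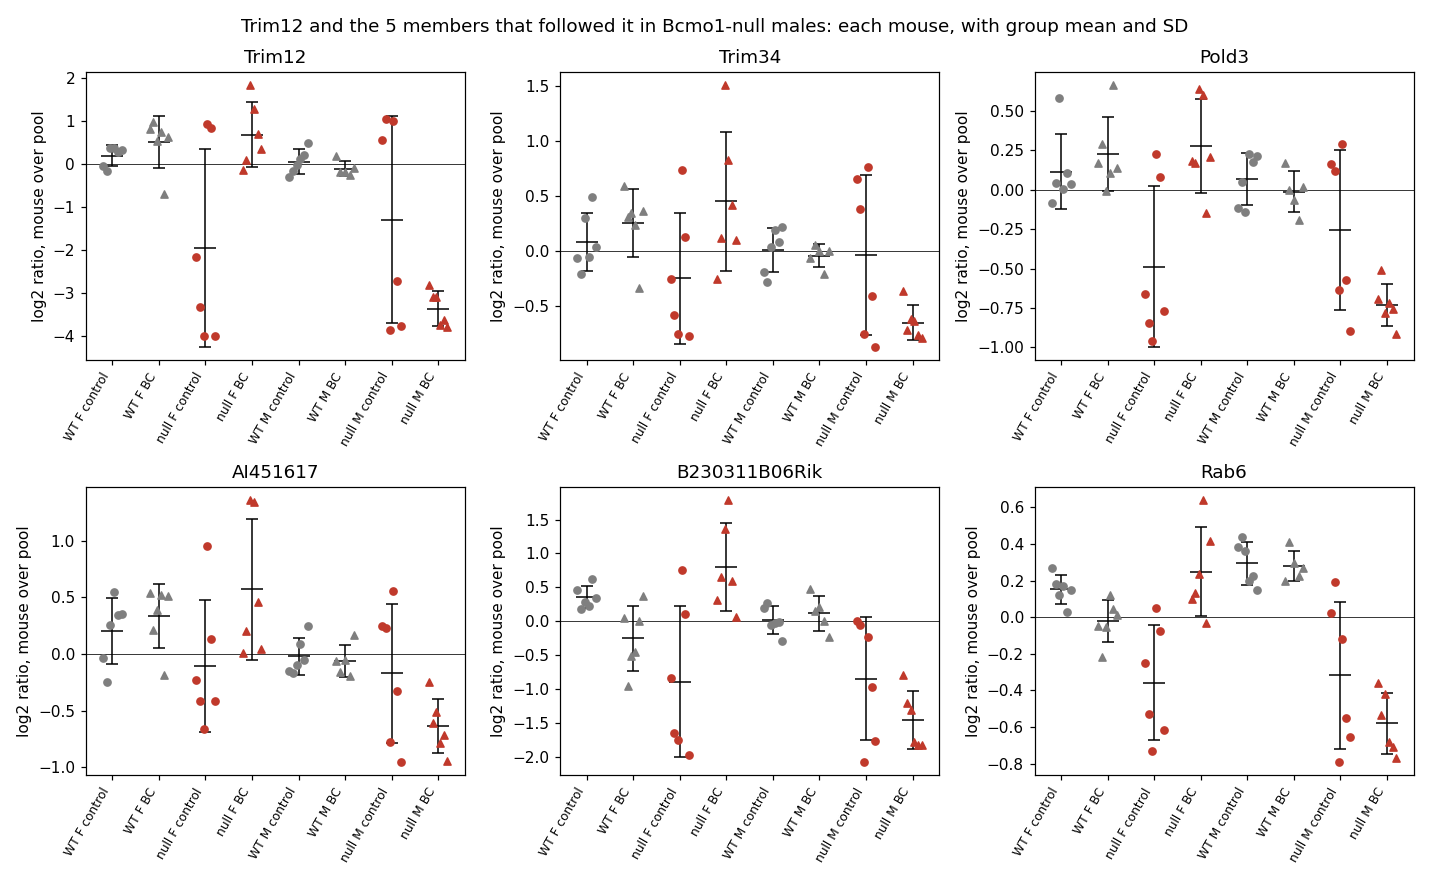
Log2 ratio of mouse over pool (y axis) of Trim12 and of the 5 genes that followed it in Bcmo1-null males, by group (x axis, F female, M male), with 1 point per mouse, circles for the control and triangles for the BC diet, and bars for the mean and SD. In Trim12, 13 of 24 null mice (red) sit below every WT mouse (grey), 4 of 6 females on the control diet, 3 of 6 males on the control diet and 6 of 6 males on the BC diet.

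By some of their probes, other members split the null mice in the same way. For Pold3, Rab6, Trim34, AI451617 and B230311B06Rik, the probes given are those called below by their rise with Trim12 in null males. Their match to Trim12 is therefore a description of that choice, and how many of all probes split the mice so was not counted. The brightest Pold3 probe and the brighter Rab6 probe each put 0 of 24 null mice below every WT mouse. Pold3, by its probe at chr7:99957522-99957581, lay between -0.19 and 0.67 in WT mice. In null mice it ran from -0.96 to 0.23 (median -0.72) in females on the control diet, from -0.15 to 0.64 (median 0.20) in females on the BC diet, from -0.90 to 0.29 (median -0.23) in males on the control diet and from -0.91 to -0.51 (median -0.74) in males on the BC diet. The null mice below every WT mouse were 13, the same 13 as for Trim12. Rab6, by its probe at chr7:100510819-100513371, also put those 13 null mice below every WT mouse. Its WT values ran from -0.22 to 0.44, the null values from -0.73 to 0.05 in females on the control diet, from -0.03 to 0.64 in females on the BC diet, from -0.79 to 0.19 in males on the control diet and from -0.77 to -0.36 in males on the BC diet.

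The TRIM genes next to Trim12 and a gene far down the stretch did so in most of these mice. Trim34 (chr7:104210534-104210593) lay between -0.33 and 0.59 in WT mice, and 12 null mice were below that, all among the 13. AI451617 (chr7:104344163-104344222) put 11 of the 13 below its WT range of -0.25 to 0.55, and B230311B06Rik (chr7:118387883-118387942), a gene of unknown function, 11 of the 13 below its WT range of -0.96 to 0.62. The Cy5 signal of B230311B06Rik was not well above background on any of the 6 arrays of null males on the BC diet and on 3 of 6 arrays of each null group on the control diet. That of AI451617 was not on 4 of 6 arrays of null males on the BC diet and 3 of 6 of each null group on the control diet. Coq7, an enzyme of ubiquinone synthesis, put 5 null mice below the WT mice, while P2ry6, a receptor for nucleotides, and Calca, the precursor of calcitonin and of its gene-related peptide, put none there.

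The question of which probes vary in step was asked by the slope of each probe on Trim12 between mice of the same sex, genotype and diet. The diet contrast of the 12 null males had no part in the choice of the stretch, but the spread among knockout mice did. The slope draws on that spread, so that the calls and shares in null males are a description only. In these males, 5 of 20435 probes passed an adjusted p under 0.05 (0.0245%), and all 5 were among the 214 members tested. For each log2 unit of Trim12, Trim34 rose by 0.29 (SE 0.03, limma adjusted p = 0.0026), Pold3 by 0.20 (SE 0.02, adjusted p = 0.012) and AI451617 by 0.25 (SE 0.03, adjusted p = 0.012). B230311B06Rik rose by 0.38 per unit (SE 0.05, adjusted p = 0.018) and Rab6 by 0.17 (SE 0.02, adjusted p = 0.032). Ucp3, an uncoupling protein of muscle and brown fat, was next at 0.24 (SE 0.04, adjusted p = 0.077). At an unadjusted p under 0.01, 13 members (6.07%) passed, 10 with a positive and 3 with a negative slope, against 0.607% of all probes. Trim12 was below every WT mouse in all 6 null males on the BC diet and in 3 of 6 on the control diet. The slope within groups therefore drew mainly on the control group. The calls rested on few mice: without null male control replicate 1, 2, 3, 4 or 6, the count was 1, 3, 2, 2 and 1. With the slide as a block or with replicate numbers as a block no member passed, with slopes of 0.16 to 0.34 for the 5 genes under the former and 0.15 to 0.32 under the latter.

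In null females, no probe passed the adjusted threshold in limma (0% of 20809). The lowest adjusted p was that of B230311B06Rik (0.50 per log2 unit of Trim12, SE 0.06, limma adjusted p = 0.068). At an unadjusted p under 0.01, 0.721% of all probes and 16 of 220 members (7.27%) passed, all 16 with a positive slope. Under 0.05, unadjusted, 30 members passed, where the share of all probes was not counted. The diet contrast and spread of these mice had a part in the choice of the stretch, so that these shares are a description only. The slopes of the 5 genes called in males were 0.22 for Pold3, 0.30 for Trim34, 0.28 for AI451617 and 0.13 for Rab6, beside 0.50 for B230311B06Rik. Without null female BC replicate 4, 5 or 6, 1 member passed the adjusted threshold in each case.

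With both sexes together, over all 24 null mice with the means of the 4 groups taken out, 9 of 20716 probes passed (0.0434%), all 9 on chromosome 7 and 7 of them members. This fit was added after the data were seen. It includes the 12 males above and the females whose diet contrast chose the stretch, so that its calls are no second evidence. Pold3 (0.21 per log2 unit of Trim12, SE 0.02, limma adjusted p = 3.9e-06), B230311B06Rik (0.44, SE 0.04, 3.9e-06) and Trim34 (0.30, SE 0.03, 3.6e-05) had the lowest adjusted p among members. Rab6 had a slope of 0.15, AI451617 of 0.27, AK052335 (an unnamed transcript at chr7:113158350-113158409) of 0.16 and Ucp3 (chr7:100359864-100359923) of 0.22, with adjusted p from 0.00049 to 0.0051. The other 2 probes were those of Dctn5, a subunit of the dynactin motor complex, outside the stretch at chr7:121940133-121940192 and chr7:121939350-121939409, with slopes of 0.13 (SE 0.01) and 0.16 (SE 0.02). The number of members passing stayed between 7 and 10 when any 1 null mouse was left out, but was 0 with the slide as a block (11 members at an unadjusted p under 0.01).

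**Figure D2:**
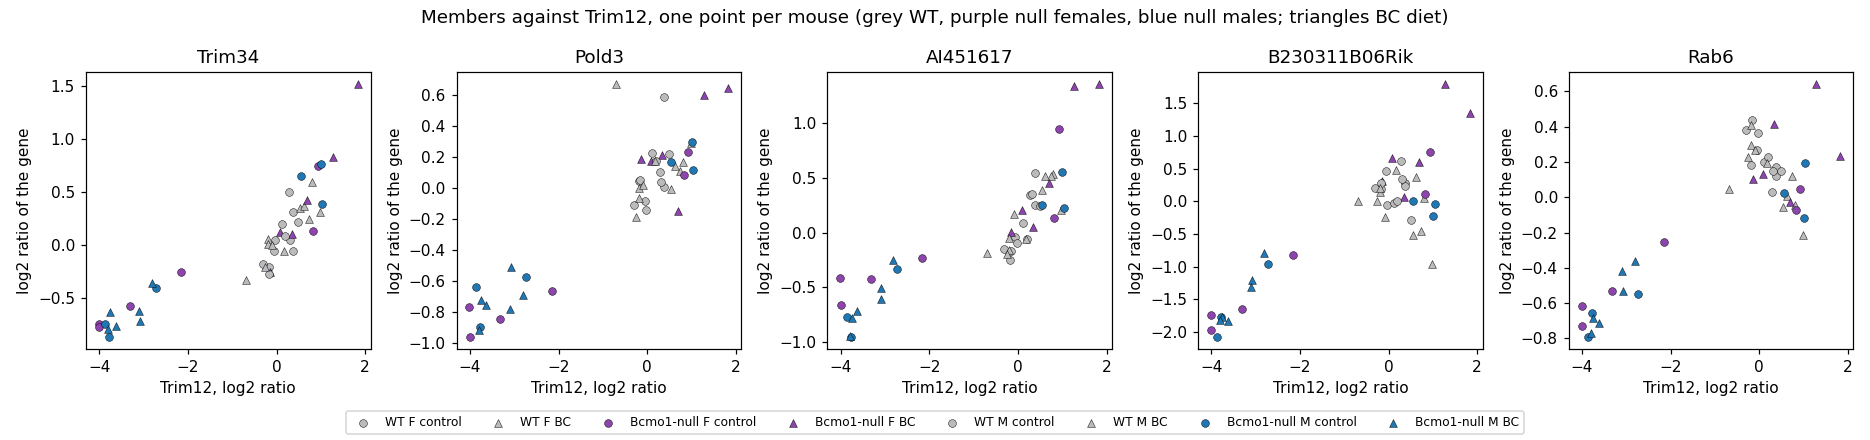
Log2 ratio of each gene (y axis) against that of Trim12 (x axis), 1 point per mouse, grey for WT, purple for Bcmo1-null females and blue for Bcmo1-null males, triangles for the BC diet. The null mice lie in 1 lot with Trim12 at -2.15 or lower and another at -0.15 or higher, and most mice of the former have lower values of each gene than those of the latter.

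The 9 probes called in step with Trim12 lay within 20 Mb of it, and probes at an unadjusted p under 0.01 reached farther. By 10-Mb bins over the 24 null mice, 9 of 132 probes up to 10 Mb before Trim12 passed an unadjusted p under 0.01, 10 of 109 up to 10 Mb after it, 8 of 88 from 10 to 20 Mb after it and 6 of 186 (3.23%) from 20 to 30 Mb after it. In each of the other bins of the chromosome 0 or 1 probe did. Over all chromosomes 99 of 20716 probes did, and 21 of 219 members (9.59%), a description only as the stretch was picked. With distances counted from Trim12 and negative before it, Pold3 lies at -4.22 Mb, Rab6 at -3.66 Mb, AK052335 at 8.98 Mb, B230311B06Rik at 14.2 Mb and Dctn5 at 17.8 Mb. Between them lie many members whose slope did not pass, and the median slope of the 219 members was 0.00, as was that of all probes.

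**Figure D3:**
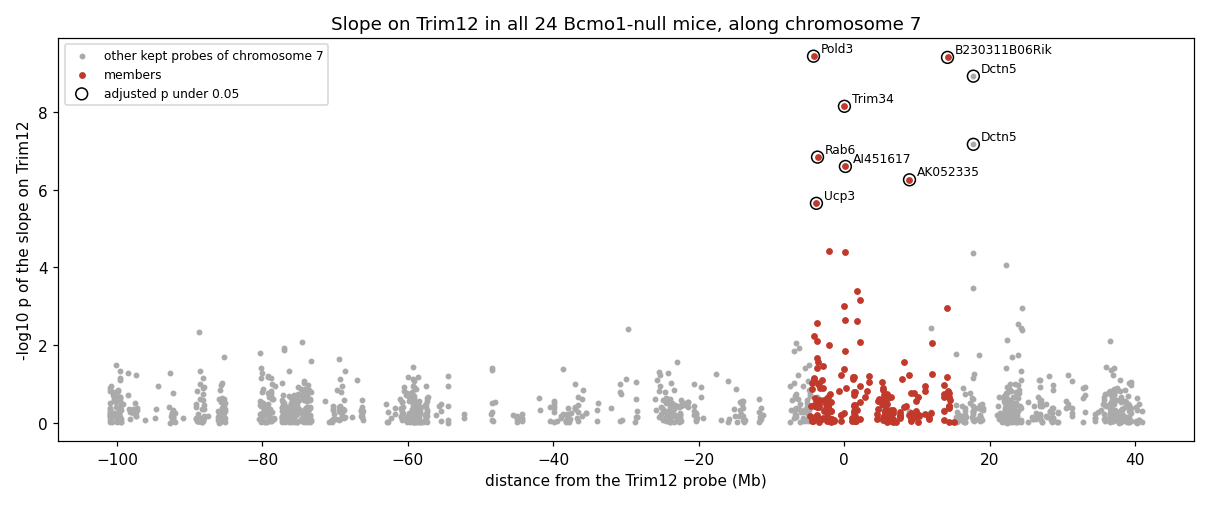
Negative log10 of the limma p (y axis) of the slope on Trim12 over all 24 Bcmo1-null mice, by distance in Mb from the Trim12 probe along chromosome 7 (x axis), with members in red, other chromosome 7 probes in grey and rings at an adjusted p under 0.05. The 9 ringed probes lie from -4.22 to 17.8 Mb, the 2 farthest being those of Dctn5 outside the stretch.

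Different probes of a gene did not all follow. A second Pold3 probe, listed only 1 base away (start 99957523), had a slope of -0.08 (SE 0.02) over the null mice, and the brightest of the 3 Pold3 probes (start 99956252) one of 0.00 (SE 0.03). The brighter Rab6 probe (chr7:100515214-100515273, mean Cy5 21585) had a slope of -0.04 (SE 0.02), against 0.15 for the probe that followed. The second AI451617 probe had a slope of 0.21 (adjusted p = 0.075), the second kept Trim34 probe one of 0.05, and the Coq7 probes slopes of 0.12 and 0.07. P2ry6 (-0.02) and Calca (-0.09, SE 0.19) did not pass. Neither did 9230105E10Rik, the current Trim12c and a paralog of Trim12 (0.02, SE 0.04), which differed between null and WT males by 0.62 on the BC diet (SE 0.15, adjusted p = 0.0052) in the direction opposite to Trim12. The sequences of the probes were not analysed here, so that a difference in the transcript bound and a difference in its level cannot be told apart.

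In WT mice, many probes all over the genome went with Trim12. In WT males 837 probes (4.1%) passed the adjusted threshold, and 9 of 214 members (4.21%) did, a share near that of all probes, all rising with Trim12. They were Gvin1, a very large interferon-inducible GTPase, and its neighbours Gm1966 and EG668139 (2 probes), with slopes from 1.33 to 1.94, Trim21 (0.74), Swap70 (2 probes, 1.20 and 1.25), which acts in B cell signaling, the tumor necrosis factor receptor family member Tnfrsf19l (0.66) and TC1709414 (1.33). In WT females 985 probes (4.73%) and 21 of 220 members (9.55%) passed, 17 rising and 4 falling, Calca by one of its probes with a slope of -2.27 (SE 0.20, limma adjusted p = 0.00058). The lymphocyte score ran from -3.38 to 0.22 in WT males and from -3.20 to 0.59 in WT females, and with scores of lymphocytes, mammary epithelium and interferon response as covariates none of the 9 members in WT males passed. As that fit has few arrays for its number of terms, it cannot tell a part of these tissues from a loss of precision. Single mice changed these counts. Without WT male control replicate 1 or 6 or WT male BC replicate 1 the count in males was 5, 0 and 14, and without WT female control replicate 6 or WT female BC replicate 3 or 5 the count in females was 13, 12 and 0.

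None of the 5 genes called in null males passed in WT mice by the same probe, but other probes of Trim34 (0.43 per log2 unit of Trim12, limma adjusted p = 0.032) and AI451617 (0.85, adjusted p = 0.0046) passed in WT females. The WT slopes of the probes called in null males, WT males first, were 0.48 and 0.49 for Trim34, 0.45 and 0.49 for AI451617, 0.50 and -0.20 for Pold3, -0.34 and -0.09 for Rab6 and -0.31 and -0.24 for B230311B06Rik. The difference of the slopes, null minus WT over all 47 mice, was itself tested, and 1608 of 20716 probes passed (7.76%), among them 23 of 219 members. It was 0.69 for B230311B06Rik (SE 0.19, limma adjusted p = 0.020) and 0.29 for Rab6 (SE 0.08, adjusted p = 0.019). For Pold3 (0.28, SE 0.11, adjusted p = 0.13), Trim34 (-0.19, SE 0.13) and AI451617 (-0.21, SE 0.15) it did not pass. In males alone neither Rab6 (0.51, SE 0.15, adjusted p = 0.066) nor B230311B06Rik (adjusted p = 0.34) passed.

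Trim12 and the genes in step with it were higher on the BC diet in null females and lower in null males, with no adjusted call in either sex, and the difference between the sexes was not tested. In null females, the contrast that chose the stretch, 0% of the probes passed the adjusted and 0.365% the unadjusted threshold. There 12 members had an unadjusted p under 0.01 in limma. Under 0.05 there were 20, where the share of all probes was not counted. Trim12 averaged -1.95 ± 2.30 (SD, n = 6) in the control group and 0.68 ± 0.75 (SD, n = 6) in the BC group. B230311B06Rik was higher on the BC diet by 1.68, Ucp3 by 0.95, Pold3 by 0.76 and Rab6 by 0.61, and NAP046281-1, an unnamed transcript next to Trim34, averaged 0.32 in the control group and -0.59 in the BC group. These values are a description of the choice.

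In null males, none of 216 members passed at an adjusted p under 0.05 in limma (0% of all probes). At an unadjusted p under 0.01, 8 did (3.70%), against 0.489% of all probes. Under 0.05, unadjusted, 22 did, where the share of all probes was not counted. The count of 8 was not stable, running from 1 to 16 with 1 mouse left out and from 2 to 10 under other settings. Trim12 averaged -1.30 ± 2.41 (SD, n = 6) in the control group and -3.36 ± 0.41 (SD, n = 6) in the BC group, a difference of -2.06 (SE 0.68, limma unadjusted p = 0.0061). That SE rests on 1 estimate of the spread shared by the 4 male groups, while Trim12 varied most in the null control group. Of 22 other settings, single mice left out among them, 8 gave no unadjusted p under 0.01 for Trim12. The highest was 0.065 (limma or the methods' t-test). The other 7 members under 0.01 were Frag1 (-0.28), AI451617 by its brighter probe (-0.53), Pold3 (-0.47), Trim30 (-0.53), Trim34 (-0.61), Hbb-b1 (0.69) and Mical2 (0.34), each with an adjusted p of 0.98. The ranges of Trim12 on the 2 diets overlapped in males, as 3 of 6 mice on the control diet were at -2.73 or lower. Within slides that held null males of both diets, Trim12 was higher on the BC diet on 1 of 5 slides (median difference -0.90), and in females on 4 of 5 (median 2.00). Pold3 was higher on the BC diet on 0 of 5 slides in males and 4 of 5 in females, Rab6 on 1 of 5 and 5 of 5, and B230311B06Rik on 1 of 5 and 5 of 5.

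**Figure D4:**
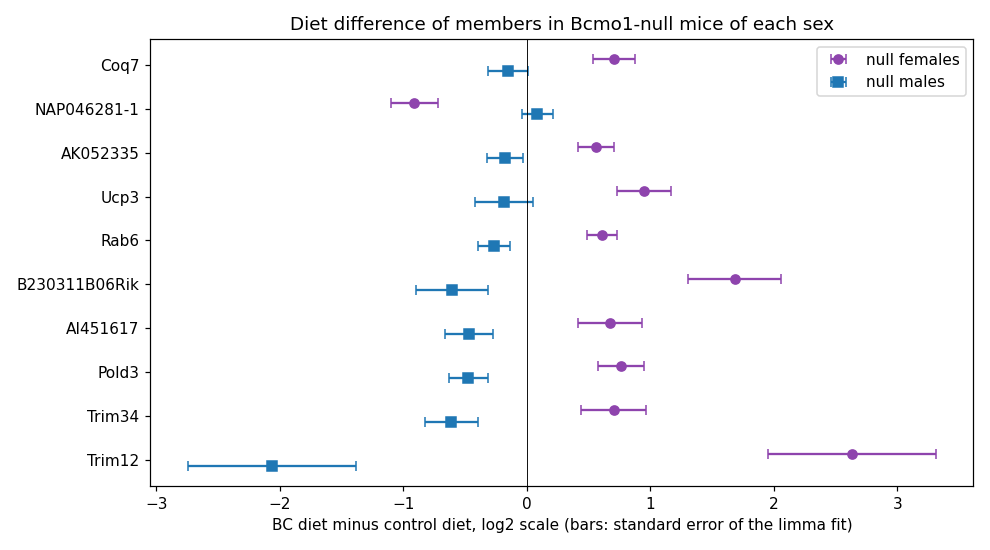
Difference between BC and control diet on the log2 scale (x axis) of members in Bcmo1-null females and males, with bars for the standard error of the limma fit. Trim12 was 2.63 higher on the BC diet in females, the contrast that chose the stretch, and differed by -2.06 in males, while no member passed an adjusted p under 0.05 in either sex.

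In WT males, no member passed at either threshold in limma, against 0% and 0.117% of all probes. Under 0.05, unadjusted, 5 did, where the share of all probes was not counted. In WT females, 1.11% of all probes passed the adjusted and 8.98% the unadjusted threshold. There Btbd10, a BTB domain protein, fell on the BC diet by 0.31 (SE 0.07, limma adjusted p = 0.045) as the only one of 222 members called, and 17 members passed the unadjusted threshold (7.66%), 3 of them higher and 14 lower. The count was 16 without WT female control replicate 3 and 7 without WT female BC replicate 6, while leaving out any other 1 WT female gave 0. Calca was the member with the largest diet difference in WT females (3.18, SE 1.01, adjusted p = 0.085), from a range of -3.89 to -2.76 on the control diet to one of -3.43 to 2.92 on the BC diet. It was low in all males (-3.83 to -3.36), and the mammary epithelium score (8 of 11 listed genes) was -3.21 at most in males and -2.49 at least in females. The part of that tissue in these values was not tested.

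The difference between null and WT mice was wide over the genome in males, and members shared in it. On the control diet, 78 of 216 members (36.1%) passed, 47 higher and 31 lower in null mice, against 30.1% of all probes, and on the BC diet again 78 (39 higher, 39 lower) against 29.1%. The shares of members are near those of all probes. With median centring in place of loess, the genotype difference in males on the control diet was called in 33 members as higher and 2 as lower, and the genotype difference in males on the BC diet in 14 and 10. With the slide as a block 25 were higher and 14 lower on the control diet. The median difference of the members was 0.02 on the control diet and 0.00 on the BC diet.

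Gvin1 and its neighbours, Trim30 and several other members were higher in null males on both diets. EG668139 was higher by 1.94 (SE 0.33, limma adjusted p = 0.00033) on the control diet and 2.35 (SE 0.35) with BC, Gvin1 by 1.40 and 1.84, Gm1966 by 1.09 and 0.91, and Trim30, a TRIM protein that limits Toll-like receptor signaling, by 1.18 and 0.87. Il18bp, the soluble inhibitor of interleukin-18, was higher by 0.89 and 0.94, Stard10, a lipid transfer protein, by 0.80 and 0.87, and NAP046281-1 by 0.71 and 0.99, each with an adjusted p of 0.0062 or lower on both diets. A score of 11 interferon response genes outside the block ran from -1.002 to -0.41 in WT males and from -0.30 to 0.44 in null males, without overlap. The adipocyte score (8 of 9 listed genes) did not overlap either, with 0.41 to 0.88 in WT and -0.20 to 0.32 in null males. The lymphocyte score ran from -3.34 to 0.22 (median -1.91) in WT and from 0.40 to 1.43 (median 0.66) in null males on the control diet, and from -3.38 to -1.53 (median -3.32) in WT and from -2.53 to 0.92 (median 0.48) in null males fed BC. The part of these tissues in the differences was not tested, because scores without overlap between the genotypes cannot be told apart from genotype in a fit. With the interferon, lymphocyte and mammary epithelium scores as covariates 0 of 216 members passed in limma on either diet, but this follows in part from that lack of overlap. The estimates of Stard10 (1.39 for the genotype difference in males on the control diet and 1.35 for the genotype difference in males on the BC diet) and, with BC, of Hbb-b1 (1.30) and Trim12 (-2.84) were then as large as or close to those without covariates, and those of Gvin1 (-0.071 and 0.41), Trim30 (0.079 and -0.23) and Il18bp (0.37 and 0.42) were smaller.

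Of the genes in step with Trim12, most were called lower in null males on the BC diet. Trim12 differed by -1.35 (SE 0.68, limma adjusted p = 0.14) on the control diet and by -3.25 (SE 0.71, adjusted p = 0.0023) on the BC diet. Rab6, by the probe in step, was lower on both diets (-0.61, SE 0.13, adjusted p = 0.0017, and -0.86, SE 0.14, adjusted p = 0.00021), and its brighter probe differed by -0.20 and 0.00. Pold3 differed by -0.32 (adjusted p = 0.13) and -0.72 (SE 0.17, adjusted p = 0.0033), while its other probes went the other way, one at 0.35 on the control diet (adjusted p = 0.032) and the other at 0.40 on the BC diet (adjusted p = 0.013). B230311B06Rik was lower by -0.86 (SE 0.29, adjusted p = 0.028) on the control diet, and on the BC diet, where it was not well above background in any null male, WT males were at least 3.55-fold higher (adjusted p = 0.0011). This bound sets the mean of the 5 WT mice in the Cy5 channel against the lowest signal well above background on each null array, or the signal of the probe itself where that is higher, and is open to dye bias as no dyes were swapped. The 2 AI451617 probes had opposite signs on the BC diet (-0.58, adjusted p = 0.036, and 0.29, adjusted p = 0.22), as had the 2 Trim34 probes (-0.61, adjusted p = 0.048, and 0.29, adjusted p = 0.067).

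The diet dependence of the genotype difference in males was tested as an interaction, and 0 of 20437 probes passed an adjusted p under 0.05 in limma, 23 of them at an unadjusted p under 0.01. Trim12 had an interaction of -1.90 (SE 0.99, limma unadjusted p = 0.067). Under 0.05, unadjusted, 3 members passed, where the share of all probes was not counted. Under 0.01, 1 member did, Hbb-b1 (1.06). That beta-globin probe differed between the genotypes by -0.04 on the control diet and 1.02 (SE 0.23, adjusted p = 0.0031) on the BC diet, while the other 3 Hbb-b1 probes did not pass on either diet.

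**Figure D5:**
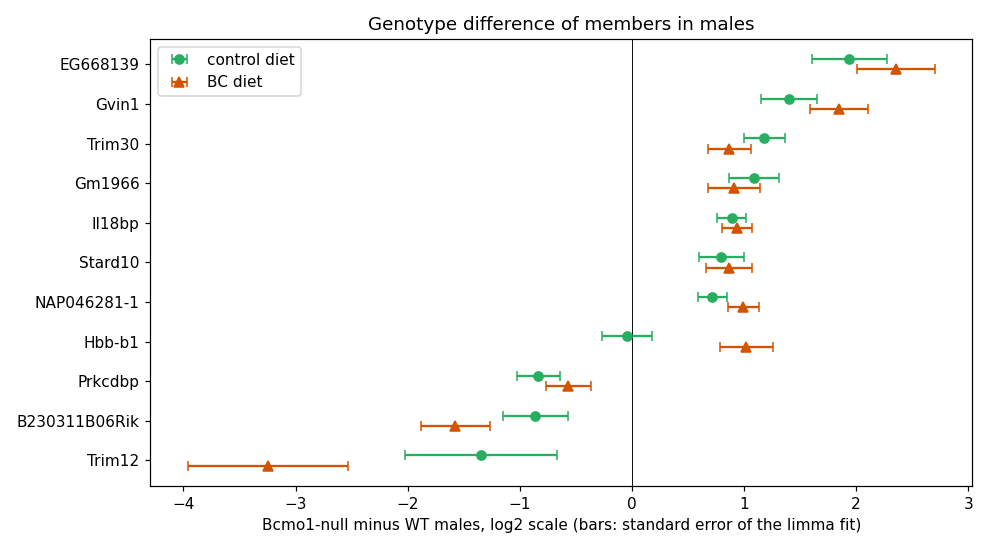
Difference between Bcmo1-null and WT males on the log2 scale (x axis) of the members with the largest differences at an adjusted p under 0.05 on either diet (y axis), circles for the control and triangles for the BC diet, with bars for the standard error of the limma fit. EG668139, Gvin1, Trim30, Gm1966, Il18bp, Stard10 and NAP046281-1 are higher in null males on both diets, and Trim12 differs by -3.25 on the BC diet, where the value of B230311B06Rik is only a bound.

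In females, whose null mice also entered the contrast that chose the stretch, few members differed between the genotypes. On the control diet 1.83% of all probes and 1 of 222 members passed, Rab6 with a difference of -0.51 (SE 0.12, limma adjusted p = 0.023). On the BC diet 5.46% of all probes and 6 members passed. These were Olfr521 (0.50), Btbd10 (0.29), Coq7 (0.59), Rras2 (0.30), Ipo7 (-0.35) and an unnamed transcript (-0.91). On the control diet the count was 5, 4 and 2 without null female control replicate 1, 4 and 5, and 0 without replicate 2, 3 or 6 of that group or replicate 1, 2 or 4 of the WT females. On the BC diet it was 11 without null female BC replicate 1 and 2 or 3 without replicate 4, 5 or 6 of that group or replicate 1, 2, 3 or 4 of the WT females.

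By function, the counts of list members called in males are to be read against the 30.1% of all probes that passed on the control diet and the 29.1% on the BC diet. These lists were written from general knowledge of the genes in the stretch, with earlier results known, and hold genes of a function without regard to how they moved. Of 10 TRIM probes tested, 4 were higher and 2 lower in null males on the control diet, and 2 higher and 3 lower on the BC diet, with a median difference of 0.04 and -0.02 against 0.01 and 0.00 over all probes. Trim21, a receptor for antibody inside the cell, was higher by 0.56 and 0.54, and Trim3, a ubiquitin ligase of the brain, lower by -0.28 on both diets. Of 13 probes of energy and lipid metabolism, 1 was lower on the control diet, and 2 were higher and 2 lower on the BC diet, where Ucp2, an uncoupling protein of many tissues, was higher by 0.44 and 0.45 with its 2 probes and Pde3b, the phosphodiesterase by which insulin lowers lipolysis, lower by -0.36 (adjusted p = 0.018). Ucp3 was the only one of them in step with Trim12 over the 24 null mice.

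Of 16 probes of adhesion and cytoskeleton, 4 were higher and 4 lower in null males fed the control diet, and 4 higher and 2 lower in those fed BC, among them the GTPase Rhog, higher by 0.36 and 0.44. Of 8 probes of DNA replication and cell cycle, 3 were higher on the control diet and 2 were higher and 1 lower on the BC diet. Rrm1, the large subunit of ribonucleotide reductase, was higher by 0.52 and 0.39. Of 9 probes of secreted peptides and receptors, 2 were lower on the control diet and 1 was higher and 2 lower on the BC diet, P2ry2, a nucleotide receptor, by -0.59 and -0.75 and Folr2, a folate receptor of macrophages, by 0.69 on the BC diet. Of 17 probes for making and degrading proteins, 1 was higher on the control diet and 1 was higher and 3 lower on the BC diet. Of the 5 olfactory receptor probes none passed on the control diet, and 1 was higher and 1 lower on the BC diet, and of 4 beta-globin probes 1 passed, in mice fed BC.

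The within-group spread, which had a part in the choice, was larger in null than in WT mice for a few members only. The ratio of the within-group SD in null to that in WT mice was 4.62 for Trim12 (SD 1.72 against 0.37), 2.93 for Rab6, 2.69 for B230311B06Rik, 2.40 for Trim34, 2.31 for AI451617 and for the second Trim12 probe, 2.17 for Frag1 and 1.97 for Pold3. Above 2 were 7 of 221 members (3.17%), 1.70% of other chromosome 7 probes and 0.638% of those on other chromosomes. The median ratio of the members was 0.96, against 0.92 over all probes.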

How the data were processed

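Per the methods, RNA of each mouse (Cy5) was set against a pool made from all samples (Cy3) on Agilent arrays without dye swaps. The authors deposited the scanner output, with median signals and local backgrounds as intensity per spot and the log10 ratio of processed signals. The deposited series table holds the same log10 ratio, equal within 1e-08 and with a median of 0 on each array. The median signals were corrected with normexp (offset 50), normalized by loess within arrays and expressed as log2 ratio of mouse to pool. Spots marked as faulty were set missing, and probes were kept when the mean of both channels reached 2 times the mean background (20811 probes in females, 20437 in males, 20718 over all arrays). Groups came from the labels. Group means of the 4 groups of a sex, slopes on the brightest Trim12 probe within groups, and their differences were fitted with limma 3.58.1 in R 4.3.3 (lmFit, eBayes, two-sided). Benjamini-Hochberg adjustment was over all kept probes with a threshold of 0.05, beside an unadjusted 0.01. The study used an unadjusted 0.01 for its counts of genes changed by diet and its list in Bcmo1-null mice, and 0.05 in its methods and other lists. A log2 slope is the change of a gene per unit of Trim12. The array number limits the precision. The study's methods say that mice were housed several to a cage, but the labels do not give which mice shared a cage or litter. The fits therefore take the mice as independent, and p-values measure the spread between these mice.

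Members, gene lists and tests were chosen with earlier results of these data known. Named genes are members named in those results, the members called by slope in null males, those with the largest genotype or diet differences in males and the largest ratio of spread, list members, and Dctn5, 9230105E10Rik and others named after their values were seen. Marker lists are summarized as median log2 ratios: adipocyte (8 of 9 genes), lymphocyte, mammary epithelium, skeletal muscle, red blood cell (2 of 4) and interferon response (11 of 12). The adipocyte score ran from -1.11 to 0.88 and the red blood cell score from -0.88 to 1.37 over the mice. Promoters were matched to 417 members by accession and to 507 by any identifier. Slides, replicate numbers, other background corrections, centrings and filters, leaving out mice and other references in place of Trim12 were tried as alternatives. The fit was tested on simulated data.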

Additional observations from a re-analysis of the deposited data

Results flagged for a closer look

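Single mice stood apart from their group in 10 of 96 groups of values tested (10.4%), by a gap to the next mouse that was large against the range of the group. By chance about 5% of groups would be marked in this way. Trim12 was at -0.69 in WT female BC replicate 5, where the next mouse was at 0.54, and the second Trim12 probe had -0.49 in that mouse. The second Trim12 probe was at 0.27 in WT male BC replicate 1. Pold3 was at 0.58 in WT female control replicate 3 by the probe in step with Trim12. By its brightest probe it was at 0.47 in WT female control replicate 2 and at 0.16 in WT male BC replicate 1. The brighter Rab6 probe was at -0.63 in WT female BC replicate 2, -0.095 in WT male control replicate 6, -0.90 in WT male BC replicate 1 and 0.20 in Bcmo1-null male control replicate 5.

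The slopes on Trim12 differed between the genotypes over all 47 mice for B230311B06Rik (0.69 per log2 unit of Trim12, Bcmo1-null minus WT) and for Rab6 by the probe in step (0.29), both at an adjusted p under 0.05 in limma. In WT mice Trim12 spanned a range of -0.69 to 0.98, and in null mice one of -4.01 to 1.83.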

How the results depend on the processing

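The number of members following Trim12 in Bcmo1-null males (5) was 3 with median centring, with 2 times the background asked on every array, with B230311B06Rik or with the other Trim12 probe as reference, 1 with ranks of Trim12 or with the 3 tissue scores as covariates, and 0 with the slide as a block, with the replicate block, and with Pold3 or Coq7 as reference. With the brightest Pold3 probe, one not in step, as reference the slopes reversed, to -1.14 for B230311B06Rik, -0.53 for Trim34, -0.35 for AI451617 and -0.44 for Rab6. For members following Trim12 in Bcmo1-null females (0) it was 3 without background correction, with Agilent's processed signals or with the other Trim12 probe, 2 with ranks, and 7 in the fit of all 24 null mice. For members following Trim12 in all 24 Bcmo1-null mice (7) it was 0 with the slide as a block. For members following Trim12 in WT males (9) it was 1 without background correction, 0 with processed signals, 121 with median centring, 2 with the slide block, 0 with the replicate block, 15 and 3 with Pold3 and Coq7 as reference, 0 with ranks and 0 with the scores. For members following Trim12 in WT females (21) it was 12 with median centring, 13 with the slide block, 9 with Pold3 and 0 with Coq7.

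The genotype difference in males on the control diet (78 members) was called in 35 with median centring, 39 with the slide block and 0 with the scores as covariates. The genotype difference in males on the BC diet (78 members) was called in 24 and in 0 for the first and last of these. With the scores, values reversed to 0.24 for B230311B06Rik, -0.33 for Pold3 by its brightest probe, -0.071 for Gvin1 and -0.14 for AI451617 on the control diet, and to -0.23 for Trim30 and -0.19 for Gm1966 on the BC diet. For the genotype difference in females on the control diet (1) the count was 3 without background correction, with processed signals or with the deposited ratios, 2 with median centring, without a filter or with the methods' t-test, and 5 over all 47 arrays. For the genotype difference in females on the BC diet (6) it was 2, 1 and 1 for the first 3 of these, 3 without a filter or with the t-test, and 15 over all arrays. The diet effect in WT females (1) was 0 without background correction, without a filter, with processed signals, the deposited ratios, the slide block or the t-test, 2 with the stricter filter or the replicate block, 9 with median centring and 16 over all arrays, where the diet effect in Bcmo1-null females (0) was 1.

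Leaving out 1 mouse at a time gave 63 to 84 and 65 to 88 members for the genotype difference in males, 0 to 5 and 2 to 11 in females, 0 to 16 for the diet effect in WT females, 1 to 5 and 0 to 1 in step in null males and females, and 0 to 14 and 0 to 22 in WT males and females. Same-numbered mice did not deviate together in all pairs of any comparison (correlations from -0.52 to 0.61). In the diet comparisons of null males and of null females, 4 of 6 pairs were over 0.1. Whether the replicate numbers pair the mice cannot be told from these values. The replicate block changed no counts beyond those given by over 1.5 times. Over 43 values of single genes, 346 of 467 other settings and 465 of 561 with a mouse left out kept the direction and side of the threshold, and 10 reversed. The causes were not tested.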
